A study of Homo sapiens with 12 samples.

Results

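The kinesin genes outside the G2/M gene list were followed over 12 RNA-seq libraries of the human glioblastoma cell line U251. Kinesins are motor proteins that walk along microtubules, and the genes were taken by symbol: every row named KIF with a number and an optional A, B or C, or KIFC1 to KIFC3, other than KIF11, KIF20B, KIF23 and KIF2C, which belong to the G2/M list. The rule found 38 genes among the 45416 rows of the table, and they were sorted by known role into 10 mitotic kinesins, 15 transport kinesins and 13 others that act on microtubule ends, in cilia or elsewhere. U251 cells had been transfected with a control siRNA (siNC) or with either of 2 siRNAs against PD-L1 (siPDL1-1 and siPDL1-2), and 48 h later they were either left unstimulated or given interferon gamma (IFNγ) at 100 U/ml for 24 h. The 6 groups held 2 libraries each, all 12 from 1 cell line and without a change of its genome, since siRNA lowers its target only for a time. The study's methods describe 2 independent experiments, and the p-values measure the spread between these libraries only. The series was made to see how silencing of PD-L1 changes the transcriptome of tumor cells.

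Between 17101069 and 55657393 reads per library were assigned to genes, and 1 read was worth 0.0187 to 0.0586 CPM (read counts scaled to library size, as the authors normalized them). CD274, which encodes PD-L1, stood at 4.60 and 4.91 CPM in unstimulated siNC cells, at 2.67 and 2.73 CPM with siPDL1-1 and at 3.57 and 3.45 CPM with siPDL1-2. After IFNγ it stood at 71.2 and 76.0 CPM with siNC, 60.9 and 66.7 CPM with siPDL1-1 and 37.5 and 35.0 CPM with siPDL1-2, so that each siRNA group lay below siNC in both states. Among cell type markers, 10 of 10 glioma and astroglial genes were over 1 CPM on average, 5 of 12 neuronal genes, 0 of 4 oligodendrocyte genes, 1 of 4 endothelial genes, 1 of 6 immune genes (CD68) and 1 of 4 genes of multiciliated cells.

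Kinesins fall into families that differ in where they work. Mitotic kinesins build and move the spindle, align chromosomes and divide the cell at cytokinesis, and their genes are switched on late in the cell cycle, so that their mRNA is known to be scarce in cells that do not divide. Transport kinesins carry vesicles, mitochondria, endosomes and mRNA along microtubules in dividing and resting cells alike, often through light chains and adaptors that bind the cargo. Many late cell cycle genes share a promoter layout in which 1 or more CCAAT boxes, bound by the NF-Y factor, lie upstream of a cell cycle genes homology region (CHR, with the letters TTTGAA or TTTAAA), which the DREAM and MuvB complexes bind.

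That layout could be looked for in the promoters of 23 of the 38 genes, which had an entry in the RefSeq promoter table (GRCh38.p14, 300 bases for each start site, most of them before it). A CHR, counted on either strand, was in 8 of 9 mitotic promoters, in 2 of 8 transport promoters and in 0 of 6 others, beside 23.99% of the 35116 promoters in the table. A CCAAT box was in 7 of 9 mitotic, 2 of 8 transport and 1 of 6 other promoters, beside 34.61% of all, and the pair was in 7 of 9 mitotic promoters, 1 of 8 transport promoters and 9.27% of all. The mitotic exceptions were KIF2B, which had neither, and KIF15, which had a CHR and no CCAAT box. The 9 mitotic promoters included those of KIF2B and KIF4B, both too low to be tested below, and KIF22 had no entry. A letter match is a description of these windows and not a binding site.

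The stretch from 90 bases before the start to 12 bases from the start on is shown for 6 mitotic kinesins, and then for 3 transport kinesins for comparison. The 6 are tested mitotic kinesins that held both motifs, so only the order and place of the motifs can be read from them. Not shown are KIF15, with a CHR at -35 alone, and the transport kinesins KIF16B (CHR match at -241) and KIF3B (CCAAT box at -78). Capitals mark CHR letters (TTTGAA or TTTAAA, read on the other strand as TTCAAA or TTTAAA) and CCAAT boxes (ATTGG on the other strand), and each line gives the GRCh38 coordinates and is written 5′ to 3′ on the strand of the gene.
KIF4A (chrX:70290014-70290115, plus strand): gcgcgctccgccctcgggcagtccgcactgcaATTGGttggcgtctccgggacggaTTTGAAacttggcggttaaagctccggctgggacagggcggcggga
KIF14 (chr1:200620740-200620841, minus strand): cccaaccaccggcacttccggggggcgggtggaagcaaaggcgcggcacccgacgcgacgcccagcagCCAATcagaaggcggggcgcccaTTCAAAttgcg
KIF20A (chr5:138179022-138179123, plus strand): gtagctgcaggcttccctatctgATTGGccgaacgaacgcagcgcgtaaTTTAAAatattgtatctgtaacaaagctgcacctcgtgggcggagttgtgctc
KIFC1 (chr6:33391733-33391834, plus strand): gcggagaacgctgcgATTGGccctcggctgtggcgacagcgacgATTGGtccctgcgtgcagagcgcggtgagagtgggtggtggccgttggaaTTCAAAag
KIF18A (chr11:28108145-28108246, minus strand): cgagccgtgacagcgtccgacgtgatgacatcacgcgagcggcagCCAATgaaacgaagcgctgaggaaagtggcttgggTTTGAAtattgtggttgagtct
KIF18B (chr17:44947762-44947863, minus strand): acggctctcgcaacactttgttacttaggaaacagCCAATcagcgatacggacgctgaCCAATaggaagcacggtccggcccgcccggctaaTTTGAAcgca
KIF5B (chr10:32056414-32056515, minus strand): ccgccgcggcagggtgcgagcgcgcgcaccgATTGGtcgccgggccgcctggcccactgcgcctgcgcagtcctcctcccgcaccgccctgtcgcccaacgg
KIF1C (chr17:4997860-4997961, plus strand): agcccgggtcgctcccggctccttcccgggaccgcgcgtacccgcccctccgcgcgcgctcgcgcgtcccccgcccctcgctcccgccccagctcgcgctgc
KIF13A (chr6:17987624-17987725, minus strand): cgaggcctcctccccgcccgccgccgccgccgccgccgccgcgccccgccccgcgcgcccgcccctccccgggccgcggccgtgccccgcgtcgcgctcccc
In all 6 mitotic windows a CCAAT box preceded the CHR, which began between position -41 (KIF20A) and position +5 (KIFC1), counting the start base as +1 and the base before it as -1. The transport windows of KIF1C and KIF13A held neither motif. KIF5B, the gene of the major kinesin heavy chain, held a CCAAT box at -59 in this window and a CHR match at -140, outside it. This order is opposite to that in the 6 mitotic windows. KIF14 also had a CHR match (TTTAAA) at -198, outside its window and before its CCAAT box at -22. The KIF20A window lies inside the gene as counted here (chr5:138178719-138187723). Its positions therefore refer to a start site downstream of the first base of that gene.

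Per length of the canonical transcript, which is the scale on which genes can be compared, the most abundant kinesin mRNA outside the G2/M list was that of KIF20A at 46.8 (31.7 to 66.3) CPM per kb, as the mean and the range over the 12 libraries. KIF22 followed at 34.6 (26.5 to 45.5), KIFC1 at 34.5 (24.1 to 51.4) and KIF5B, the first transport kinesin, at 32.2 (24.9 to 39.5) CPM per kb. In all 6 group means KIF20A lay above KIF22 and KIFC1, but in IFNγ-treated siPDL1-1 cells it lay below KIF5B (32.1 against 33.2). The order of KIF22, KIFC1 and KIF5B changed between groups. KIF22 and KIFC1 were at 45.4 and 50.8 CPM per kb in unstimulated siNC cells and at 32.4 and 30.0 in unstimulated siPDL1-2 cells. KIF13A, KIF3B, KIF1C and KIF4A came next at 18.6 to 18.9 CPM per kb and could not be ordered either. KIF18B reached 16.8, KIF1B 15.1, KIF3C 11.6, KIFC3 11.6 and KIFC2 9.20 CPM per kb. In the third role group the most abundant were KIF2A, a microtubule depolymerase, at 8.67, KIF7, a Hedgehog regulator at the tip of the primary cilium, at 4.42, and KIF21A, which slows microtubule growth at the cell cortex, at 4.02 CPM per kb.

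**Figure D1:**
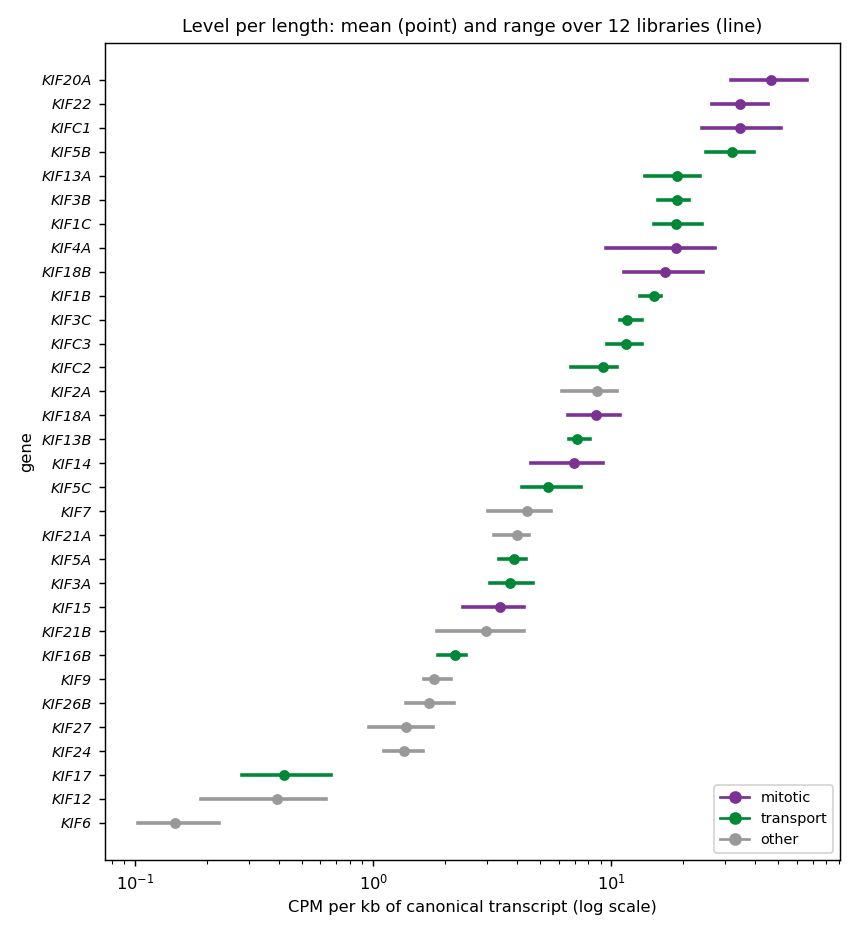
Level of the 32 kinesin genes kept for testing, as CPM per kb of the canonical transcript on a log axis. Each point is the mean and each line the range over the 12 libraries, colored by role. KIF20A, KIF22 and KIFC1 of the mitotic group lead, followed by KIF5B of the transport group, and KIF17, KIF12 and KIF6 are under 1 CPM per kb.

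The filter on low reads kept 32 of the 38 genes, 8 of 10 mitotic, 14 of 15 transport and 10 of 13 other kinesins. KIF2B, a mitotic kinesin known from testis, and KIF26A had 0 reads in all 12 libraries, and 3 reads, the most that a count of 0 allows, are worth 0.0562 to 0.176 CPM depending on the library, for counting error only. KIF1A, the neuronal carrier of synaptic vesicle precursors, had at most 4 reads in a library, KIF25 at most 4 and KIF19 at most 9. KIF4B had 1 to 11 reads, and since it is a near-identical intronless copy of KIF4A, reads of either could have been placed on the other. Of the mitotic and transport genes that were kept, the lowest count in any library was the 19 reads of KIF17, so no gene of these 2 groups was kept for 1 group of libraries alone.

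Below, a gene rose, fell or passed when limma's moderated test on log2(CPM + 1), adjusted over the 17982 genes tested, gave an FDR below 0.01, and it was called when the fold change was also above 1.5. Fold changes are given on that log2 scale with their standard error, each from 2 against 2 libraries in 1 fit over all 12. The knockdown comparisons in the same state share their siNC libraries and are therefore not independent of each other.

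With siPDL1-1 the mitotic kinesins were lower than with siNC in both states, and the transport kinesins lay on both sides of siNC. KIF2A, which also works at spindle poles, was sorted with the other kinesins. It is not in the mitotic counts, and its values are given further below. In unstimulated cells 8 of 8 mitotic kinesins fell (8.99% of all genes tested fell), 3 of them were called (4% of all genes), and the median change was -0.55. After IFNγ again 8 of 8 fell (12.2% of all genes), 4 were called (5.47%), and the median was -0.67. Of the 14 transport kinesins, 1 fell and 2 rose in unstimulated cells (9.8% of all genes rose), and 3 fell and 1 rose after IFNγ (11.6%), with medians of 0.073 and 0.063. The median over all genes tested was 0.016 and -0.0049. Each of the 12 libraries was also left out in turn, and the 8 falls before and the 8 after IFNγ passed in all 12 of these leave-one-out fits.

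**Figure D2:**
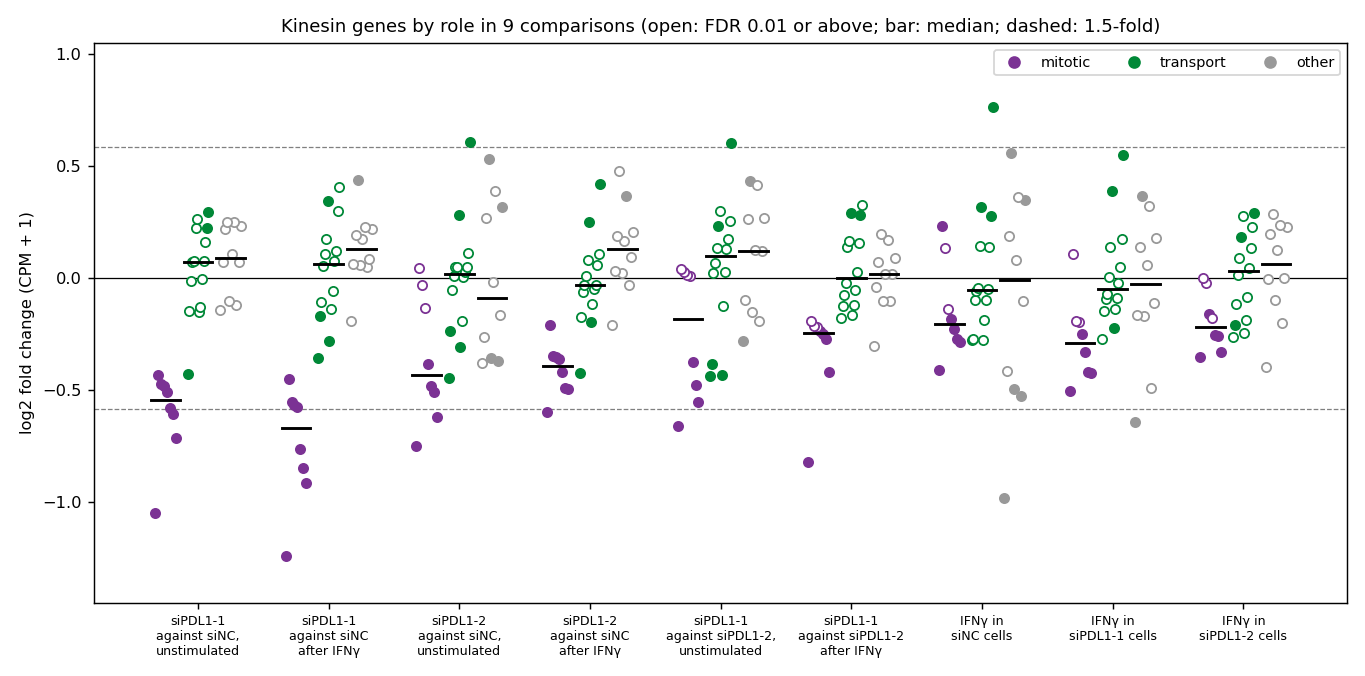
Log2 fold changes of the 32 kinesin genes in 9 comparisons (limma on log2(CPM + 1)), by role. Filled points have an FDR below 0.01, open points do not, black bars are medians and dashed lines mark a 1.5-fold change. In the comparisons of siPDL1-1 with siNC all 8 mitotic points are filled and below 0, whereas transport points lie on both sides of 0 throughout.

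KIF4A had the largest fall. Its product is a chromokinesin that rides on chromosome arms and, with PRC1, sets the length of the central spindle, and the gene lies at chrX:70290104-70420886. KIF4A stood at 120.0 and 119.6 CPM in the unstimulated siNC libraries, 101 and 103 CPM after IFNγ, 57.0 and 57.9 CPM with siPDL1-1, 41.8 and 43.5 CPM with siPDL1-1 and IFNγ, 91.8 and 91.1 CPM with siPDL1-2 and 71.8 and 80.7 CPM with siPDL1-2 and IFNγ. The siPDL1-1 libraries lay below all others in each state, with the siPDL1-2 libraries between them and siNC. The fall with siPDL1-1 was -1.05 ± 0.054 (FDR 5.77e-09) in unstimulated cells and -1.24 ± 0.054 (FDR 2.14e-10) after IFNγ. With siPDL1-2 it was -0.39 ± 0.054 (FDR 4.90e-05) and -0.42 ± 0.054 (FDR 4.65e-05). KIF4A was also the only mitotic kinesin called between the siRNAs, at -0.66 ± 0.054 (FDR 7.11e-07) in unstimulated cells and -0.82 ± 0.054 (FDR 4.54e-08) after IFNγ. Reads were counted on both strands, and 77 of the 4573 exon bases of KIF4A are shared with PDZD11 on the other strand.

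KIF20A, a motor of the central spindle that brings PLK1 and the chromosomal passenger complex to the site of cytokinesis, fell with both siRNAs in both states. In unstimulated cells KIF20A was counted at 205 and 204 CPM with siNC, 136 and 132 CPM with siPDL1-1 and 133 and 132 CPM with siPDL1-2, and in IFNγ-treated cells at 177 and 182, 101 and 98.1 and 119.9 and 117 CPM. No library of a PD-L1 siRNA reached an siNC library in the same state. The changes were -0.61 ± 0.040 (FDR 5.43e-08) with siPDL1-1 and -0.62 ± 0.040 (FDR 3.46e-08) with siPDL1-2, and their difference was 0.014 ± 0.040 (FDR 0.820). After IFNγ they were -0.85 ± 0.040 (FDR 5.66e-10) and -0.60 ± 0.040 (FDR 1.05e-07), with a difference of -0.25 ± 0.040 (FDR 4.05e-04). The siPDL1-2 change after IFNγ was just past the fold threshold and was no longer called without replicate 2 of IFNγ-treated siNC cells (-0.578) or without replicate 2 of IFNγ-treated siPDL1-2 cells (-0.58). KIF20A (chr5:138178719-138187723) shares 132 exon bases with BRD8 and 74 with CDC23, both on the other strand.

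KIFC1, a minus-end motor that focuses spindle poles and clusters extra centrosomes, showed the same order of siNC above both siRNAs. The KIFC1 level was 120.2 and 123 CPM (siNC), 72.5 and 74.7 CPM (siPDL1-1) and 74.3 and 69.2 CPM (siPDL1-2) without IFNγ, against 101 and 98.3 CPM, 58.8 and 57.7 CPM and 71.9 and 69.3 CPM with it, in the same order. In unstimulated cells the siPDL1-1 and siPDL1-2 libraries overlapped. The fall was -0.72 ± 0.048 (FDR 6.99e-08) with siPDL1-1 and -0.75 ± 0.048 (FDR 3.47e-08) with siPDL1-2. After IFNγ it was -0.76 ± 0.048 (FDR 1.69e-08) with siPDL1-1 and -0.49 ± 0.048 (FDR 4.84e-06) with siPDL1-2.

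KIF14, which holds the citron kinase at the midbody, was among the called genes with siPDL1-1 after IFNγ. KIF14 stood at 57.5 and 61.9 CPM in the unstimulated siNC libraries, 64.0 and 67.0 CPM after IFNγ, 39.1 and 39.9 CPM with siPDL1-1, 35.1 and 33.4 CPM with siPDL1-1 and IFNγ, 57.9 and 58.9 CPM with siPDL1-2 and 48.3 and 44.1 CPM with siPDL1-2 and IFNγ. Unstimulated siPDL1-2 libraries lay within the range of the siNC libraries, whereas siPDL1-1 libraries lay well below it. The change with siPDL1-1 was -0.58 ± 0.059 (FDR 3.48e-06) before and -0.91 ± 0.059 (FDR 1.93e-08) after IFNγ. With siPDL1-2 it was -0.030 ± 0.059 (FDR 0.719) before and -0.50 ± 0.059 (FDR 2.40e-05) after IFNγ.

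KIF15, which backs up KIF11 in holding spindle poles apart, and KIF18A, which damps chromosome oscillation by ending the growth of kinetochore microtubules, passed with siPDL1-1 in both states and with siPDL1-2 after IFNγ alone. In unstimulated cells KIF15 was counted at 20.2 and 20.4 CPM with siNC, 13.7 and 14.2 CPM with siPDL1-1 and 18.4 and 18.4 CPM with siPDL1-2, and in IFNγ-treated cells at 18.1 and 18.6, 11.3 and 12.8 and 15.4 and 13.1 CPM. In unstimulated cells KIF18A was counted at 31.9 and 30.5 CPM with siNC, 23.1 and 22.5 CPM with siPDL1-1 and 31.8 and 32.6 CPM with siPDL1-2, and in IFNγ-treated cells at 37.3 and 36.2, 24.1 and 25.2 and 27.9 and 28.7 CPM. Both stood lower with siPDL1-1 in every library of a state than with siNC. KIF15 changed by -0.51 ± 0.084 (FDR 3.00e-04) and -0.57 ± 0.084 (FDR 8.99e-05) with siPDL1-1, before and after IFNγ, and KIF18A by -0.43 ± 0.058 (FDR 4.75e-05) and -0.56 ± 0.058 (FDR 3.09e-06). With siPDL1-2 in unstimulated cells neither passed, at -0.13 ± 0.084 (FDR 0.225) for KIF15 and 0.046 ± 0.058 (FDR 0.571) for KIF18A.

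KIF18B, a depolymerizing motor of astral microtubule ends, and KIF22, a chromokinesin also called Kid, fell with both siRNAs in both states. The KIF18B level was 95.4 and 98.9 CPM (siNC), 69.5 and 69.0 CPM (siPDL1-1) and 68.0 and 67.8 CPM (siPDL1-2) without IFNγ, against 73.7 and 71.9 CPM, 51.1 and 46.0 CPM and 53.7 and 59.9 CPM with it, in the same order. The KIF22 level was 94.6 and 94.5 CPM (siNC), 68.9 and 66.8 CPM (siPDL1-1) and 67.5 and 67.2 CPM (siPDL1-2) without IFNγ, against 78.4 and 77.7 CPM, 58.7 and 55.0 CPM and 63.9 and 70.9 CPM with it, in the same order. In unstimulated cells the libraries of both PD-L1 siRNAs lay below siNC for both genes, and for KIF22 they overlapped each other. KIF18B changed by -0.48 with siPDL1-1 and -0.51 with siPDL1-2 when unstimulated (FDR 2.39e-05 and 1.05e-05) and by -0.58 and -0.36 after IFNγ (FDR 2.91e-06 and 4.40e-04). For KIF22 the changes were -0.47 and -0.48 when unstimulated (FDR 1.16e-05 and 7.03e-06) and -0.45 and -0.21 after IFNγ (FDR 1.24e-05 and 0.00828).

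**Figure D3:**
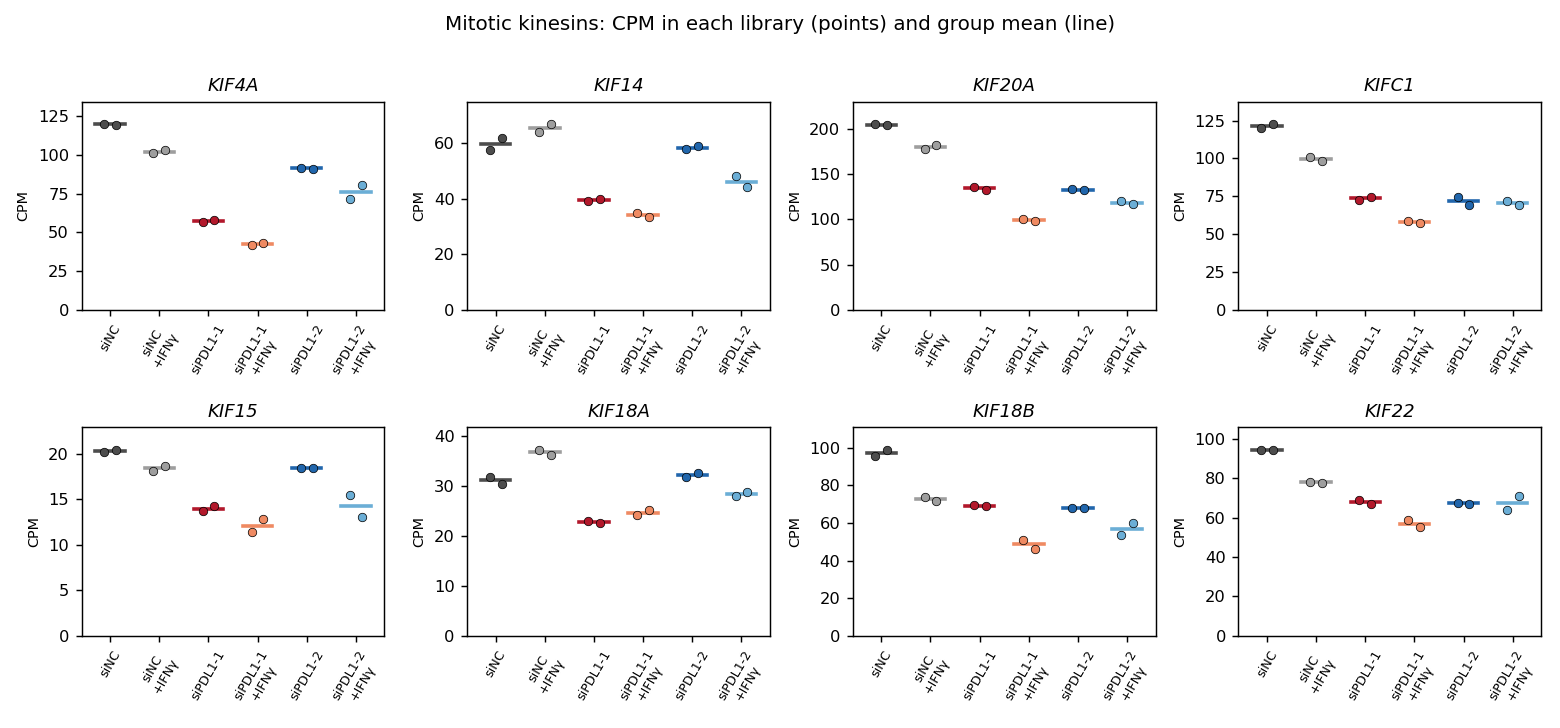
CPM of the 8 mitotic kinesins kept for testing in each of the 12 libraries (points) with the group mean (line), each panel on its own linear axis from 0. The siPDL1-1 libraries lie below the siNC libraries of the same state in all 8 panels, and the unstimulated siPDL1-2 libraries lie near siNC for KIF14, KIF15 and KIF18A.

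With siPDL1-2 the mitotic group fell less evenly. After IFNγ 8 of 8 mitotic kinesins fell (9.75% of all genes tested) and 1, KIF20A, was called (3.13%), with a median of -0.39. In unstimulated cells 5 of 8 fell (11.9%) and 2, KIF20A and KIFC1, were called (6.17% of all genes), with a median of -0.43. After IFNγ, KIF15 passed in 7 of the 12 leave-one-out fits (FDR 0.0773 without replicate 2 of IFNγ-treated siPDL1-2 cells), and KIF22 passed in 3 of the 12 leave-one-out fits (FDR 0.0906 without replicate 1 of IFNγ-treated siPDL1-2 cells). The 5 falls in unstimulated cells passed in each of the 12 leave-one-out fits. Of the transport kinesins 2 fell and 2 rose after IFNγ (8.6% of all genes rose), and 3 fell and 2 rose in unstimulated cells (16.5%), with medians of -0.032 and 0.015.

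Summed over the mitotic genes, the level per library showed the same order. It was 745 and 752 CPM in unstimulated siNC cells, 543 and 538 CPM with siPDL1-2 and 480 and 477 CPM with siPDL1-1, which are 72.2% and 63.9% of the siNC mean. After IFNγ it was 651 and 655 CPM with siNC, 473 and 484 CPM with siPDL1-2 (73.2%) and 382 and 372 CPM with siPDL1-1 (57.7%). The summed level of the transport genes stayed between 982 and 1051 CPM in all 12 libraries. In bulk RNA, fewer dividing cells and less of each mRNA per dividing cell cannot be told apart.

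The siRNAs were compared with each other directly. CD274 was lower with siPDL1-1 than with siPDL1-2 in unstimulated cells and higher after IFNγ (60.9 and 66.7 against 37.5 and 35.0 CPM), and matches of either siRNA to kinesin transcripts were not examined, since the siRNA sequences were not used here. In unstimulated cells 4 of 8 mitotic kinesins (KIF4A, KIF14, KIF15 and KIF18A) were lower with siPDL1-1 than with siPDL1-2 (14.2% of all genes tested were lower), 1 was called (4.35%) and 0 were higher (9.89%). KIF14 differed by -0.55 ± 0.059 (FDR 7.96e-06), KIF18A by -0.48 ± 0.058 (FDR 2.31e-05) and KIF15 by -0.38 ± 0.084 (FDR 0.00267). For KIF18B, KIF22, KIFC1 and KIF20A the difference was 0.028, 0.0096, 0.038 and 0.014, and the fits gave standard errors of 0.060, 0.054, 0.048 and 0.040. After IFNγ 5 of 8 were lower with siPDL1-1 (4.52% of all genes), 1 was called (2.23%) and 0 were higher (5.94%). The 5 were KIF4A, KIF14 (-0.42 ± 0.059, FDR 1.32e-04), KIFC1 (-0.27 ± 0.048, FDR 0.00102), KIF20A and KIF22 (-0.24 ± 0.054, FDR 0.00574). KIF15 passed in 8 of the 12 leave-one-out fits (FDR 0.0321 without replicate 1 of unstimulated siPDL1-1 cells). KIF22 after IFNγ passed in 4 of the 12 leave-one-out fits (FDR 0.0706 without replicate 2 of IFNγ-treated siPDL1-2 cells). KIFC1 after IFNγ passed in 11 of the 12 leave-one-out fits (FDR 0.0115 without replicate 1 of IFNγ-treated siPDL1-2 cells).

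IFNγ itself was followed by smaller changes of the mitotic kinesins, and 0 of 8 were called in any siRNA group. In siNC cells 5 of 8 fell (9.34% of all genes tested), 1 rose (17.9%) and the median was -0.21. KIF18B fell most, at -0.41 ± 0.060 (FDR 6.26e-05), followed by KIFC1 (-0.29 ± 0.048, FDR 2.56e-04) and KIF22 (-0.27 ± 0.054, FDR 9.21e-04). KIF18A was the gene that rose, at 0.23 ± 0.058 (FDR 0.00532), and it passed in 4 of the 12 leave-one-out fits (FDR 0.0551 without replicate 2 of unstimulated siNC cells). KIF4A passed in 8 of the 12 leave-one-out fits (FDR 0.0264 without replicate 1 of unstimulated siNC cells), and KIF20A passed in 9 of the 12 leave-one-out fits (FDR 0.0206 without replicate 1 of IFNγ-treated siNC cells).

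In siPDL1-1 cells 5 of 8 fell with IFNγ (8.49% of all genes) and 0 rose (14.4%), with a median of -0.29. KIF18B (-0.51 ± 0.060, FDR 9.54e-06), KIF20A (-0.43 ± 0.040, FDR 7.23e-07) and KIF4A (-0.42 ± 0.054, FDR 2.04e-05) changed most. In siPDL1-2 cells 5 of 8 fell (7.56%) and 0 rose (9.57%), with a median of -0.22. These were KIF15 (-0.35), KIF14 (-0.33), KIF4A (-0.26), KIF18B (-0.26) and KIF20A (-0.16). None of these 5 passed in every leave-one-out fit, and the highest FDR was 0.0795 for KIF15 without replicate 2 and 0.0578 for KIF18B and 0.0243 for KIF4A without replicate 1 of IFNγ-treated siPDL1-2 cells, 0.0128 for KIF14 without replicate 2 of the same group, and 0.0567 for KIF20A without replicate 1 of unstimulated siPDL1-2 cells.

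Whether the effect of an siRNA depended on IFNγ was tested with the interaction term. For siPDL1-1, 0 of the 32 kinesins passed in either direction (0.378% of all genes tested were lower and 1.25% higher, and 0.968% were called), although 9 of the 32 had an unadjusted p below 0.05, and limma, edgeR and DESeq2 each called 0. For siPDL1-2, 6 kinesins passed with a negative term (11.9% of all genes) and 4 with a positive one (5.16%), and 1 was called (7.62%). Among the mitotic genes, the siPDL1-2 effect was more negative after IFNγ for KIF14 (-0.46 ± 0.083, FDR 9.00e-04) and KIF18A (-0.41 ± 0.082, FDR 0.00193) and less negative for KIFC1 (0.26 ± 0.068, FDR 0.00972). KIF18A passed in 10 of the 12 leave-one-out fits (FDR 0.0138 without replicate 2 of unstimulated siPDL1-2 cells). KIFC1 passed in 2 of the 12 leave-one-out fits (FDR 0.0678 without replicate 2 of unstimulated siPDL1-2 cells).

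**Figure D4:**
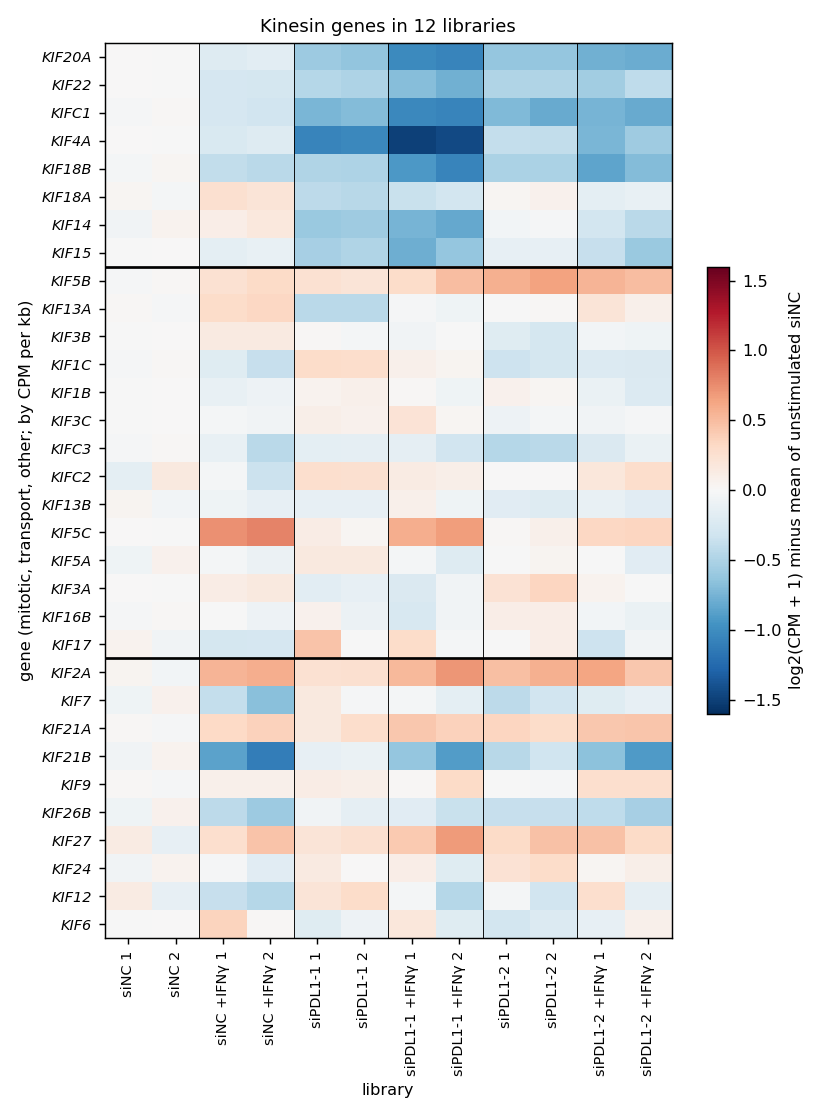
Log2(CPM + 1) of the 32 kinesin genes in the 12 libraries, minus the mean of the unstimulated siNC libraries (color scale from -1.6 to 1.6), with mitotic genes on top, then transport and other genes, each sorted by level per length. The mitotic block is blue in the siPDL1-1 columns, deepest for KIF4A, and the transport block mixes red and blue rows.

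The transport kinesins moved singly. KIF5B (chr10:32009015-32056425), the ubiquitous heavy chain of conventional kinesin, which carries mitochondria and lysosomes, was higher with siPDL1-2 than with siNC. KIF5B stood at 146 and 149 CPM in the unstimulated siNC libraries, 175 and 183 CPM after IFNγ, 175 and 170.2 CPM with siPDL1-1, 181 and 209 CPM with siPDL1-1 and IFNγ, 219 and 232 CPM with siPDL1-2 and 216 and 209 CPM with siPDL1-2 and IFNγ. Every library of the 5 other groups lay above the unstimulated siNC libraries. In unstimulated cells the rise was 0.61 ± 0.057 (FDR 1.57e-06) with siPDL1-2 and 0.22 ± 0.057 (FDR 0.00850) with siPDL1-1, and the siRNAs differed by -0.38 ± 0.057 (FDR 1.38e-04). Without replicate 2 of unstimulated siPDL1-2 cells the siPDL1-2 change was 0.565 and was no longer called. The siPDL1-1 change passed in 4 of the 12 leave-one-out fits (FDR 0.0808 without replicate 1 of unstimulated siPDL1-1 cells). After IFNγ the siPDL1-2 change was 0.25 ± 0.057 (FDR 0.00454), and it passed in 8 of the 12 leave-one-out fits (FDR 0.04 without replicate 1 of IFNγ-treated siPDL1-2 cells). After IFNγ KIF5B was higher in siNC cells by 0.27 ± 0.057 (FDR 0.00145), and the interaction term for siPDL1-2 was -0.36 ± 0.081 (FDR 0.00417). The first of these passed in 10 of the 12 leave-one-out fits (FDR 0.0184 without replicate 1 of unstimulated siNC cells), and the interaction term passed in 7 of the 12 leave-one-out fits (FDR 0.029 without replicate 2 of unstimulated siPDL1-2 cells).

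KIF5C, a heavy chain of conventional kinesin that is enriched in neurons, was the transport kinesin with the largest IFNγ change. In unstimulated cells KIF5C was counted at 29.7 and 29.3 CPM with siNC, 32.1 and 30.2 CPM with siPDL1-1 and 29.8 and 31.3 CPM with siPDL1-2, and in IFNγ-treated cells at 49.6 and 52.0, 44.4 and 47.5 and 37.5 and 37.8 CPM. The IFNγ-treated libraries lay above the unstimulated ones with every siRNA, with siNC highest and siPDL1-2 lowest among them. In siNC cells the rise was 0.76 ± 0.058 (FDR 7.95e-08) and was called (8.12% of all genes tested were called). It was 0.55 ± 0.058 (FDR 3.22e-06) in siPDL1-1 cells (6.87% called over all genes, KIF5C not among them) and 0.29 ± 0.058 (FDR 0.00175) in siPDL1-2 cells (5.27%, KIF5C again not among them). The interaction term for siPDL1-2 was -0.47 ± 0.082 (FDR 7.59e-04), and after IFNγ KIF5C changed with siPDL1-2 against siNC by -0.42 ± 0.058 (FDR 9.02e-05). The rise in siPDL1-2 cells passed in 10 of the 12 leave-one-out fits (FDR 0.0306 without replicate 1 of unstimulated siPDL1-2 cells). KIF5A, the third heavy chain, was at 19.4 to 25.3 CPM and passed in none of the 11 comparisons, and 71 of its exon bases are shared with the more abundant DCTN2 on the other strand.

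KIF1C, which carries dense-core vesicles and integrins and moves between Golgi and cell edge, differed between the 2 PD-L1 siRNAs. The KIF1C level was 152 and 157 CPM (siNC), 190.3 and 189 CPM (siPDL1-1) and 122 and 127 CPM (siPDL1-2) without IFNγ, against 136 and 119.7 CPM, 164 and 159.7 CPM and 133 and 132 CPM with it, in the same order. The siPDL1-1 libraries were highest in both states. In unstimulated cells the siRNAs differed by 0.60 ± 0.051 (FDR 1.22e-06), with siPDL1-1 above siNC by 0.29 ± 0.051 (FDR 5.53e-04) and a change of -0.31 ± 0.051 (FDR 2.21e-04) with siPDL1-2. Without replicate 1 of unstimulated siPDL1-2 cells the difference was 0.576 and was no longer called, and the siPDL1-1 change passed in 10 of the 12 leave-one-out fits (FDR 0.0116 without replicate 1 of unstimulated siNC cells). After IFNγ siPDL1-1 stood above siNC by 0.34 ± 0.051 (FDR 1.00e-04). IFNγ was followed by a change of -0.28 ± 0.051 (FDR 5.47e-04) in siNC cells, which passed in 10 of the 12 leave-one-out fits (FDR 0.0129 without replicate 2 of IFNγ-treated siNC cells). KIF1B, a mitochondrial and vesicle carrier of the same family, was at 143 to 176 CPM and passed once, falling with IFNγ in siPDL1-2 cells (-0.21 ± 0.046, FDR 0.00313), where it passed in 9 of the 12 leave-one-out fits (FDR 0.045 without replicate 1 of unstimulated siPDL1-2 cells).

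KIF13A, which takes endosomes and melanosomal cargo to the cell periphery, was lower with siPDL1-1 in both states. KIF13A stood at 113 and 111 CPM in the unstimulated siNC libraries, 138 and 142 CPM after IFNγ, 82.9 and 83.1 CPM with siPDL1-1, 111 and 107 CPM with siPDL1-1 and IFNγ, 112 and 113 CPM with siPDL1-2 and 129 and 118 CPM with siPDL1-2 and IFNγ. In unstimulated cells the siPDL1-2 and siNC libraries overlapped, the siPDL1-1 libraries lay below both, and the siRNAs differed by -0.44 ± 0.047 (FDR 8.72e-06). Against siNC the siPDL1-1 change was -0.43 ± 0.047 (FDR 7.64e-06) before and -0.36 ± 0.047 (FDR 3.12e-05) after IFNγ. It was higher after IFNγ in siNC cells (0.32 ± 0.047, FDR 7.55e-05) and in siPDL1-1 cells (0.39 ± 0.047, FDR 1.16e-05). KIF13B, its close relative, stayed within 57.9 to 70.9 CPM and passed nowhere.

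The kinesin-2 motors KIF3A and KIF3B pair with each other and carry cargo into cilia, and in unstimulated cells with siPDL1-2 they moved in opposite directions. In unstimulated cells KIF3A was counted at 23.3 and 23.1 CPM with siNC, 20.5 and 21.0 CPM with siPDL1-1 and 27.3 and 29.6 CPM with siPDL1-2, and in IFNγ-treated cells at 25.3 and 25.8, 19.5 and 22.2 and 24.1 and 23.0 CPM. In unstimulated cells KIF3B was counted at 117 and 118 CPM with siNC, 119 and 114 CPM with siPDL1-1 and 102 and 96.1 CPM with siPDL1-2, and in IFNγ-treated cells at 129.6 and 129, 113 and 117 and 113 and 112 CPM. With siPDL1-2 in unstimulated cells KIF3A libraries were the highest of all and KIF3B libraries the lowest of all. KIF3A changed there by 0.28 ± 0.070 (FDR 0.00491) and KIF3B by -0.24 ± 0.045 (FDR 5.99e-04). The siRNAs differed for KIF3A by -0.43 ± 0.070 (FDR 2.60e-04) and for KIF3B by 0.23 ± 0.045 (FDR 9.00e-04). The KIF3A rise passed in 8 of the 12 leave-one-out fits (FDR 0.0741 without replicate 2 of unstimulated siPDL1-2 cells). The KIF3B fall passed in 11 of the 12 leave-one-out fits (FDR 0.0191 without replicate 2 of unstimulated siPDL1-2 cells). After IFNγ with siPDL1-2 both changes were negative, at -0.12 ± 0.070 (FDR 0.243) for KIF3A, which did not pass, and -0.20 ± 0.045 (FDR 0.00362) for KIF3B, which passed in 8 of the 12 leave-one-out fits (FDR 0.0255 without replicate 2 of IFNγ-treated siNC cells). After IFNγ with siPDL1-1 the changes were -0.28 ± 0.070 (FDR 0.00564) for KIF3A and -0.17 ± 0.045 (FDR 0.00780) for KIF3B, and these passed in 7 and 3 of the 12 leave-one-out fits, with an FDR of 0.0603 without replicate 1 of IFNγ-treated siPDL1-1 cells for KIF3A and of 0.0414 without replicate 2 of IFNγ-treated siNC cells for KIF3B. KIF3C, the other kinesin-2 motor that pairs with KIF3A, was at 58.3 to 71.9 CPM and passed nowhere.

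KIFC3, a minus-end motor at the Golgi and at cell junctions, was at 44.3 and 45.3 CPM in unstimulated siNC cells and 32.3 and 32.9 CPM with siPDL1-2, a change of -0.45 ± 0.086 (FDR 8.99e-04). After IFNγ it was at 41.3 and 33.0 CPM with siNC and 38.1 and 41.5 CPM with siPDL1-2, where the groups overlapped and the change was 0.10 ± 0.086 (FDR 0.398). The unstimulated change passed in 10 of the 12 leave-one-out fits (FDR 0.0114 without replicate 2 of unstimulated siNC cells). KIFC2, a minus-end motor known from neurons, was at 27.7 and 22.2 CPM with siNC and IFNγ and at 32.4 and 34.7 CPM with siPDL1-2 and IFNγ, a rise of 0.42 ± 0.10 (FDR 0.00620), which passed in 3 of the 12 leave-one-out fits (FDR 0.0805 without replicate 2 of IFNγ-treated siNC cells). KIF16B, which moves early endosomes, stayed within 9.85 to 13.0 CPM and KIF17, the motor of the NMDA receptor and of cilia, within 1.11 to 2.64 CPM, and both passed nowhere.

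**Figure D5:**
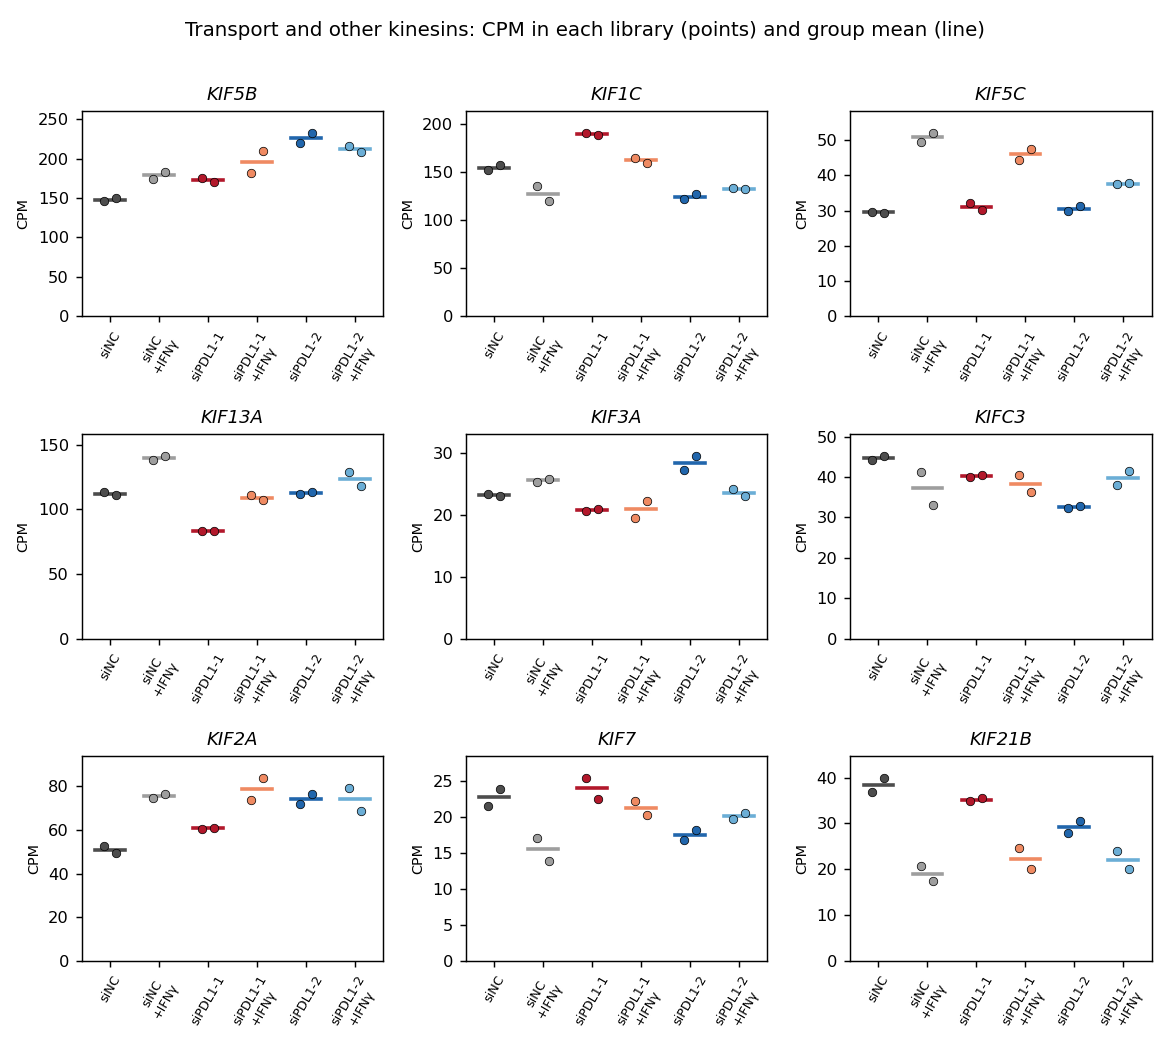
CPM of 6 transport kinesins (KIF5B, KIF1C, KIF5C, KIF13A, KIF3A and KIFC3) and 3 other kinesins (KIF2A, KIF7 and KIF21B) in each library (points) with the group mean (line), each panel on its own linear axis from 0. KIF5C is higher and KIF21B lower in IFNγ-treated than in unstimulated libraries of the same siRNA, and KIF5B has its highest group means with siPDL1-2.

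Set side by side, 8 of 8 mitotic, 9 of 14 transport and 5 of 10 other kinesins passed in at least 1 of the 11 comparisons, beside 58.7% of all genes tested, and 4, 3 and 2 were called in at least 1, beside 22.3%. The counts of the transport and other kinesins were near these shares. The highest group mean divided by the lowest was 1.61 to 2.81 among mitotic genes, with a median of 1.96, and 1.14 to 1.78 among transport genes, with a median of 1.37. For the mitotic genes the lowest mean was that of siPDL1-1 with IFNγ in 7 of 8.

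Among the other kinesins, KIF21B, which limits microtubule growth in neurons and at the immune synapse of T cells, had the largest change with IFNγ. In unstimulated cells KIF21B was counted at 36.8 and 39.9 CPM with siNC, 34.9 and 35.4 CPM with siPDL1-1 and 27.9 and 30.6 CPM with siPDL1-2, and in IFNγ-treated cells at 20.7 and 17.3, 24.5 and 20.1 and 24.0 and 20.0 CPM. The IFNγ-treated libraries lay below the unstimulated ones with each siRNA. The fall was -0.98 ± 0.11 (FDR 1.07e-05) in siNC cells, -0.64 ± 0.11 (FDR 4.80e-04) in siPDL1-1 cells and -0.40 ± 0.11 (FDR 0.0153) in siPDL1-2 cells, the last of which did not pass. In siPDL1-1 cells it was -0.504 and no longer called without replicate 2 of IFNγ-treated siPDL1-1 cells.

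KIF2A, which shortens microtubules at spindle poles and in growing processes, rose with siPDL1-2 in unstimulated cells only. It rose with IFNγ in siNC and siPDL1-1 cells and not in siPDL1-2 cells. The rise in siPDL1-1 cells passed in 9 of the 12 leave-one-out fits (FDR 0.012 without replicate 1 of unstimulated siPDL1-1 cells). The KIF2A level was 52.4 and 49.4 CPM (siNC), 60.6 and 60.8 CPM (siPDL1-1) and 71.8 and 76.2 CPM (siPDL1-2) without IFNγ, against 74.5 and 76.4 CPM, 73.5 and 83.9 CPM and 79.2 and 68.8 CPM with it, in the same order. The unstimulated siNC libraries were the lowest of the 12. The changes were 0.53 ± 0.071 (FDR 3.62e-05) with siPDL1-2 when unstimulated and 0.56 ± 0.071 (FDR 1.79e-05) with IFNγ in siNC cells, and the interaction term was -0.56 ± 0.10 (FDR 9.10e-04). KIF2A shares 2446 exon bases with DIMT1 on the other strand, and reads over them cannot be told apart.

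KIF7 had its lowest mean in IFNγ-treated siNC cells. KIF7 stood at 21.5 and 23.9 CPM in the unstimulated siNC libraries, 17.1 and 13.9 CPM after IFNγ, 25.5 and 22.5 CPM with siPDL1-1, 22.2 and 20.3 CPM with siPDL1-1 and IFNγ, 16.8 and 18.2 CPM with siPDL1-2 and 19.8 and 20.6 CPM with siPDL1-2 and IFNγ. Its change with IFNγ in siNC cells was -0.53 ± 0.10 (FDR 4.54e-04), and its interaction term for siPDL1-2, 0.73 ± 0.14 (FDR 0.00122), was the only one called. Without replicate 2 of IFNγ-treated siNC cells the term was 0.584 and was no longer called, and the IFNγ change passed in 11 of the 12 leave-one-out fits (FDR 0.0108 without replicate 2 of unstimulated siNC cells). KIF7 shares 589 exon bases with TICRR, a replication factor gene on the other strand. KIF21A rose with IFNγ in siNC cells (0.35 ± 0.063, FDR 4.45e-04) and with siPDL1-2 in unstimulated cells (0.32 ± 0.063, FDR 9.64e-04), where it passed in 10 of the 12 leave-one-out fits (FDR 0.0152 without replicate 1 of unstimulated siPDL1-2 cells).

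Over all 10 other kinesins, those just described included, the counts were as follows. With siPDL1-1 against siNC, 0 of 10 passed by limma in unstimulated cells (8.99% of all genes fell and 9.8% rose, and 2 of the 10 had an unadjusted p below 0.05) and 1, KIF7, rose after IFNγ (0.44 ± 0.10, FDR 0.00240), in 10 of the 12 leave-one-out fits (FDR 0.0491 without replicate 2 of IFNγ-treated siNC cells). After IFNγ 11.6% of all genes rose with this siRNA. With siPDL1-2, 2 fell and 2 rose in unstimulated cells (11.9% and 16.5% of all genes), and 1, KIF7, rose after IFNγ (8.6%). Of these 4 unstimulated changes 1 passed in every leave-one-out fit. The KIF7 rise passed in 3 of the 12 leave-one-out fits (FDR 0.153 without replicate 2 of IFNγ-treated siNC cells). With IFNγ in siNC cells 3 fell and 2 rose (9.34% and 17.9%), in siPDL1-1 cells 1 fell and 1 rose (8.49% and 14.4%), and in siPDL1-2 cells 0 passed by limma (7.56% and 9.57%, and 2 of the 10 had an unadjusted p below 0.05).

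The 4 kinesins of the G2/M list and CENPE, the kinesin that carries chromosomes to the spindle equator, gave the closest comparison. With siPDL1-1 all 5 fell in unstimulated cells and after IFNγ (8.99% and 12.2% of all genes fell), with medians of -0.59 and -0.75, beside -0.55 and -0.67 for the 8 mitotic kinesins. With siPDL1-2 all 5 fell after IFNγ (9.75% of all genes), and in unstimulated cells 2 fell (11.9%) and 1 rose (16.5%). Their medians with siPDL1-2 were -0.53 after IFNγ and 0.038 in unstimulated cells. Those of the 8 mitotic kinesins were -0.39 and -0.43, so the lists differed in unstimulated siPDL1-2 cells. KIF20B, a motor of late cytokinesis, was the largest change of this list with siPDL1-1 after IFNγ, at -0.81 ± 0.051 (FDR 1.57e-08), and KIF2C, a depolymerase at centromeres, had -0.75 ± 0.042 (FDR 5.04e-09). All 4 RefSeq promoters of the G2/M-list kinesins held a CHR, and 3 of 4 held a CCAAT box.

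Genes whose products work with mitotic kinesins mostly fell as well. Of 20 such genes, 17 fell and 1 rose with siPDL1-1 in unstimulated cells (8.99% and 9.8% of all genes), and 18 fell and 0 rose after IFNγ (12.2% and 11.6%). With siPDL1-2 14 fell and 1 rose in unstimulated cells (11.9% and 16.5%), and 17 fell and 1 rose after IFNγ (9.75% and 8.6%). With siPDL1-1 after IFNγ 12 were called (5.47% of all genes), led by PLK1 (-0.81 ± 0.054, FDR 3.21e-08), the kinase that docks on KIF20A, RACGAP1 (-0.76 ± 0.045, FDR 8.67e-09), the partner of KIF23 in centralspindlin, KPNA2 (-0.73 ± 0.039, FDR 2.29e-09), an importin, and CDCA8 (-0.72 ± 0.051, FDR 5.19e-08), a subunit of the chromosomal passenger complex. SKA1, a kinetochore protein, fell most in unstimulated cells (-0.74 ± 0.12, FDR 1.98e-04). With siPDL1-2 after IFNγ RACGAP1 (-0.65 ± 0.045, FDR 1.53e-07) and ECT2, the exchange factor that activates RhoA for cytokinesis (-0.65 ± 0.066, FDR 6.66e-06), were called. In unstimulated siPDL1-2 cells INCENP (-0.66 ± 0.056, FDR 5.26e-07) and AURKB (-0.65 ± 0.065, FDR 2.55e-06), both of the chromosomal passenger complex, were called lower, and HMMR, a spindle assembly factor, was called higher (0.97 ± 0.068, FDR 9.14e-08). In unstimulated cells HMMR stood at 48.9 and 45.5 CPM with siNC and at 94.3 and 91.8 CPM with siPDL1-2. After IFNγ it stood at 63.8 and 69.0 CPM with siNC and at 86.3 and 81.9 CPM with siPDL1-2.

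Light chains and cargo adaptors of the transport kinesins were counted against the same shares. Of 22 genes tested, 3 fell and 5 rose with siPDL1-1 in unstimulated cells (8.99% and 9.8% of all genes), and 1 fell and 4 rose after IFNγ (12.2% and 11.6%). With siPDL1-2, 3 fell and 6 rose in unstimulated cells (11.9% and 16.5%), and 3 fell and 3 rose after IFNγ (9.75% and 8.6%). MAPK8IP1, a scaffold that links kinesin-1 to JNK kinases and cargo, was called higher with siPDL1-1 in both states (0.91 ± 0.084, FDR 1.53e-06 and 0.94 ± 0.084, FDR 6.32e-07). SYBU, an adaptor for synaptic cargo, was called lower with siPDL1-1 in unstimulated cells (-0.63 ± 0.13, FDR 0.00169).

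Dynein, the motor that runs in the opposite direction, was looked at in the same way. Of 21 dynein and dynactin genes, 5 fell and 3 rose with siPDL1-1 in unstimulated cells (8.99% and 9.8% of all genes), and 8 fell and 6 rose with siPDL1-2 (11.9% and 16.5%). After IFNγ 5 fell and 2 rose with siPDL1-1 (12.2% and 11.6%), and 3 fell and 2 rose with siPDL1-2 (9.75% and 8.6%). With IFNγ in siNC cells 2 fell and 9 rose (9.34% and 17.9%), among them the dynein light chains DYNLT3 (1.21 ± 0.17, FDR 4.36e-04) and DYNLT1 (1.09 ± 0.047, FDR 7.45e-11). DYNC1LI2, a light intermediate chain that binds cargo adaptors, was called lower with siPDL1-2 after IFNγ (-0.83 ± 0.050, FDR 4.03e-08). DYNLT3 was called higher with siPDL1-2 in unstimulated cells (1.20 ± 0.17, FDR 4.73e-04). After IFNγ DYNLT3 was at 28.5 and 24.1 CPM with siPDL1-2, below the 34.5 and 34.3 CPM with siNC.

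Of 21 genes for transcription regulators of mitotic genes, 5 fell and 1 rose with siPDL1-1 in unstimulated cells (8.99% and 9.8% of all genes), and 5 fell and 0 rose after IFNγ (12.2% and 11.6%). With siPDL1-2, 6 fell and 5 rose in unstimulated cells (11.9% and 16.5%), and 3 fell and 2 rose after IFNγ (9.75% and 8.6%). E2F1, an activator of genes needed for S phase and itself a cell cycle gene, was at 49.5 and 49.6 CPM in unstimulated siNC cells, 23.6 and 22.5 CPM with siPDL1-1 and 27.9 and 27.5 CPM with siPDL1-2, changes of -1.07 ± 0.061 (FDR 1.52e-08) and -0.82 ± 0.061 (FDR 1.75e-07). After IFNγ E2F1 was at 30.4 and 29.4 CPM with siNC, 16.6 and 16.9 CPM with siPDL1-1 and 23.1 and 25.2 CPM with siPDL1-2. RB1, which holds E2F factors inactive, was at 76.2 and 75.6 CPM with siNC and 125 and 141 CPM with siPDL1-2 in unstimulated cells. This was a rise of 0.80 ± 0.074 (FDR 2.48e-06). After IFNγ RB1 was at 124 and 125 CPM with siNC and 122 and 117 CPM with siPDL1-2. IFNγ in siNC cells was followed by a change of -0.71 for E2F1, -0.59 for E2F2 and 0.71 for RB1, all called.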

How the data were processed

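Poly(A) RNA of 12 U251 libraries, 6 groups of 2, was sequenced and processed by the authors in CLC Genomics Workbench on GRCh38 with Ensembl genes, with reads on both strands counted. The table deposited by the authors holds a signal per gene, a normalized CPM whose column sums differ between libraries. Whole reads could be recovered for 100% of values in every library (tolerance 0.01 read), 17101069 to 55657393 per library. The study's methods and the sample labels name different RNA extraction and sequencing systems. Groups came from the sample titles, and 0 value columns lacked a sample.

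The main test was limma (version 3.58.1, trend and robust) on log2(CPM + 1) over all 12 libraries, after edgeR's filterByExpr (minimum count 10, minimum total 15) had kept 17982 of 45416 genes, with Benjamini-Hochberg adjustment and the study's thresholds (FDR 0.01, fold change 1.5). Alternatives were a pseudocount of 0.1, no filter, edgeR 4.0.16 quasi-likelihood and DESeq2 1.42.0 Wald tests on the recovered reads, a replicate block, a fit of 6 libraries and each library left out. Scripts ran in R 4.3.3 and Python 3.11.15 and were tested on simulated data. Levels per kb and overlaps used GENCODE release 44, and promoters the RefSeq table of GRCh38.p14. Neither annotation need be that of the authors.

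Mitotic and transport kinesins kept by the filter were all named, other kinesins when called or among the 3 highest per kb, and genes of the context lists when called, at most 4 a list by size of change in a comparison. The members and lists were chosen with earlier results of these data known. Protein sequences were not used here. A gene of the context lists that this rule would name is not reported here.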

Additional observations from a re-analysis of the deposited data

Results flagged for a closer look

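For 10 kinesin genes the effect of siPDL1-2 against siNC differed between unstimulated and IFNγ-treated cells by the interaction term of the limma fit (FDR below 0.01), whereas 0 passed for siPDL1-1. The term was the siPDL1-2 change after IFNγ minus the change without it. It was negative for the mitotic kinesins KIF14 (-0.46) and KIF18A (-0.41), whose siPDL1-2 change was near 0 in unstimulated cells (-0.030 and 0.046) and -0.50 and -0.36 after IFNγ, and positive for KIFC1 (0.26), where the change went from -0.75 to -0.49. Among the transport kinesins it was -0.47 for KIF5C, -0.40 for KIF3A, -0.36 for KIF5B, 0.37 for KIF1C and 0.55 for KIFC3. For KIF2A it was -0.56 and for KIF7 0.73, the only called term. Of all genes tested, 11.9% passed with a negative and 5.16% with a positive term, so the 10 of 32 kinesins were read against that background. KIFC1 and KIF3A passed in 2 of the 12 leave-one-out fits each (FDR 0.0678 and 0.0503 without replicate 2 of unstimulated siPDL1-2 cells), KIFC3 in 6 and KIF5B in 7. The level of CD274, the target of the siRNA, also differed by siRNA and state, at 3.57 and 3.45 CPM with siPDL1-2 when unstimulated and 37.5 and 35.0 CPM after IFNγ, and its part in these terms was not tested.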

How the results depend on the processing

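Of 112 kinesin changes that passed over the 11 comparisons, 0 reversed under any alternative that was run. With a pseudocount of 0.1 112 passed, with no filter on low reads 87, with edgeR 109, with DESeq2 105, in the fit of the 6 libraries of 1 state 56 of 69, and with 1 library left out 84 to 108. The replicate numbers did not pair the libraries (the correlation of their deviations between groups was -0.13 to 0.19, over 0.1 in 2 of 15 pairs), and with a replicate block 105 of the 112 passed. Without the fold threshold the number of called kinesins went from 4 to 13 (siPDL1-1 against siNC after IFNγ), 1 to 13 (siPDL1-2 after IFNγ), 1 to 7 (between the siRNAs after IFNγ), 3 to 11 (siPDL1-1 unstimulated), 3 to 14 (siPDL1-2 unstimulated), 2 to 11 (between the siRNAs, unstimulated), 2 to 15, 1 to 10 and 0 to 8 (IFNγ in siNC, siPDL1-1 and siPDL1-2 cells) and 1 to 10 (siPDL1-2 interaction), since fewer conditions had to be met. The siPDL1-2 interaction had 3 called with edgeR and 3 with DESeq2, and the cause was not tested. Leaving out 1 library gave 4 to 6, 0 to 1, 1, 3 to 4, 2 to 3, 1 to 2, 2 to 4, 0 to 3, 0, 0 (siPDL1-1 interaction) and 0 to 3 called in these comparisons. Medians of the mitotic and transport groups shifted by at most 0.078, and 37 of 386 such values moved by more than the spread between replicates. That spread was 0.043 for the mitotic and 0.022 for the transport median. Medians of the other kinesins were not checked in this way. With 2 libraries a group, small changes of genes with few reads, such as KIF17 (19 reads in its lowest library) and KIF12 (9 reads), may have been missed.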
